A study of Arabidopsis thaliana with 2 samples.

Results

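The ERF and DREB transcription factors examined here are 92 of the 21808 loci listed in polyadenylated RNA of 10-day Arabidopsis thaliana seedlings. RNA-seq compared the crwn1 crwn2 double mutant with wild type, with 1 library of each genotype. CRWN1 and CRWN2 encode lamina proteins with long coiled coils, which line the nuclear envelope from inside. The labels name neither the alleles nor the accession background, and they give no growth conditions or hour of harvest. Members were selected on the product name in the files, such as "Integrase-type DNA-binding", an old annotation term for the AP2/ERF domain, and 3 neighbouring CBF loci were dropped. The family was chosen with its read counts in these libraries already known, so the counts and ratios below describe these libraries and are not independent evidence of a direction. With 1 library per genotype there is no replicate check and no test was made, and genotype cannot be told apart from harvest or library preparation. In whole seedlings, fewer cells of a type and less RNA per cell cannot be told apart.

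Factors of the AP2/ERF family bind DNA through the AP2 domain. The ERF subfamily (groups B1 to B6) is known for binding the GCC box of defence and ethylene response genes, and the DREB subfamily (groups A1 to A6) for binding the DRE element of cold and dehydration genes. Many of them are quickly and briefly induced by cold, wounding, touch or pathogens in seedlings, and some carry an EAR motif and act as repressors. By the RefSeq annotation, 82 of the 92 members belong to groups A1 to B6 and 1 more, ERF53, was placed in A6 from general knowledge of the family. The name rule also took 9 loci outside these groups (ANT, BBM, PLT1, PLT2, AP2, SMZ, SNZ, WRI4 and AT4G13040). The label therefore holds for 83 members, 43 of DREB groups and 40 of ERF groups.

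The mutant library held 2.204 M reads placed on transcript models and the wild-type library 2.094 M. CRWN1 had 57 reads over 25.3% of its length in the mutant, against 1021 reads over 94.2% in wild type, and CRWN2 had 9 reads over 8.17% in the mutant, against 148 reads over 61.3% in wild type. Both targeted genes thus had few reads in the library labelled crwn1 crwn2. Levels below are reads and RPKM (reads scaled by the length of the transcript model and by the library total), and log2 ratios are log2((RPKM + 1) in crwn1 crwn2 / (RPKM + 1) in wild type). A locus was measured when it had an RPKM of at least 1 and at least 10 reads in at least 1 library. It was called lower or higher in the mutant when it differed by at least 2-fold and the exact 95% interval of its read ratio left out equality. These intervals cover counting error only and hold no variation between plants or libraries, since each genotype has 1 library. Reads copied by PCR are not independent molecules, so the intervals may be too narrow even for counting error.

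Together the members held fewer reads in the mutant. Their reads summed to 5775 in crwn1 crwn2 and 10150 in wild type, or 2621 RPM in the mutant and 4846 RPM in wild type (RPM, reads scaled to the library total). The ratio of these shares was 0.541 (exact 95% interval 0.523 to 0.559). The lists were otherwise alike in length, with 85 members listed in the mutant and 86 in wild type.

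Of the 92 members, 55 were measured and 23 of these were called lower in crwn1 crwn2 (41.8%), against a background of 4.53% over all 14393 measured loci. Another 3 were called higher (5.45%), against a background of 6.34%. In either direction the background was 10.9%. The median log2 ratio of measured members was -0.70, against 0.12 over all measured loci, and 43 of the 55 lay below 0 (78.2%, against 40.6% of all measured loci). The filter favours a gene that is high in either library: 39 members passed it in both libraries, 10 passed in wild type alone and 6 in the mutant alone. Of the 23 called lower, 6 passed in wild type alone. Over all 92 members without the filter, 64 lay below 0 and the median was -0.40.

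**Figure D1:**
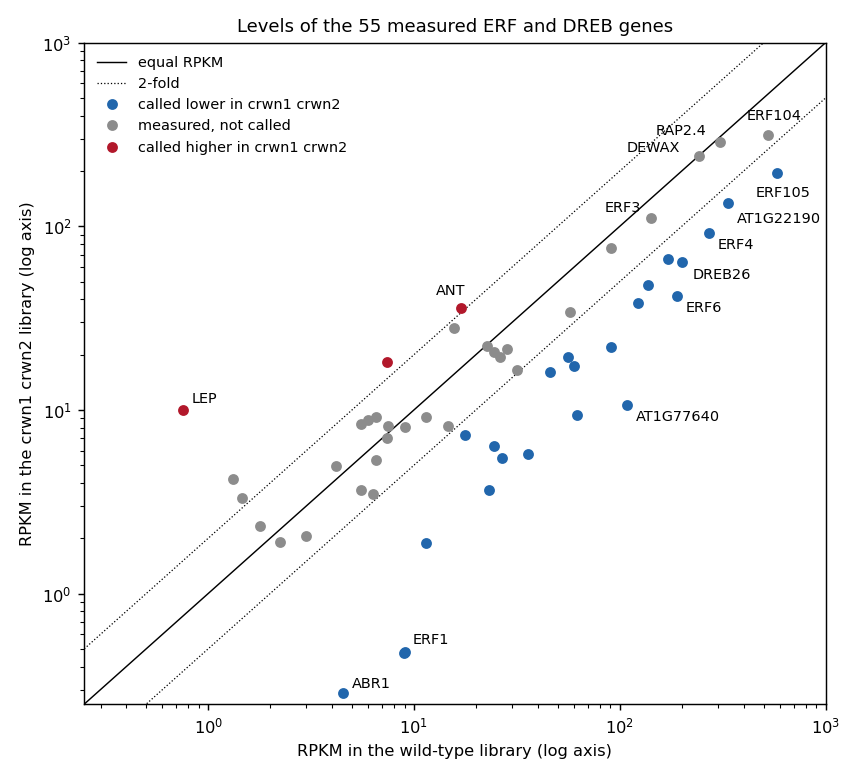
RPKM of the 55 measured members in crwn1 crwn2 (vertical) and wild type (horizontal), both on log axes, with 1 point per gene and 1 library per genotype; dotted lines mark 2-fold. The 23 members called lower (blue) reach from ABR1 and ERF1 at the bottom, where AT5G21960 lies under the point of ERF1, to ERF105 at the upper right, while RAP2.4 and DEWAX lie at the line of equal RPKM.

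The members called lower were spread over the ERF and DREB subfamilies. Among the 27 measured members of the DREB groups, 13 were called lower and 1 higher, with a median of -0.77. Among the 22 measured members of the ERF groups, 10 were called lower and 1 higher, with a median of -0.82. The 6 measured loci outside these groups had 0 called lower and 1 called higher, with a median of 0.054. By group, B3 and A5 held 6 genes called lower each, A4 and B1 held 3 each, A6 held 2, and A1, A2 and B4 held 1 each.

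**Figure D2:**
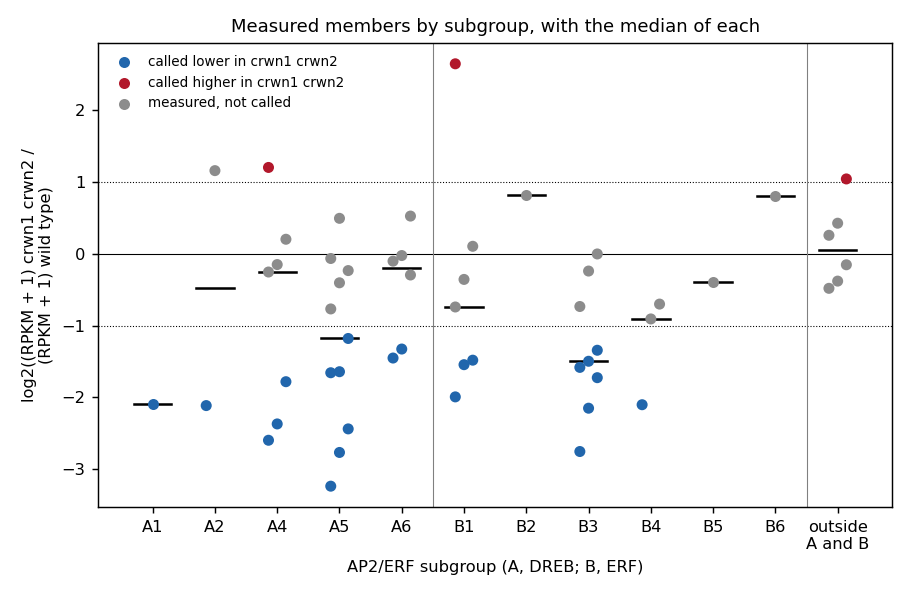
Log2 ratio of each measured member (point) by AP2/ERF group, with the median of each group as a bar; values below 0 are lower in crwn1 crwn2. The medians lie at -1.50 in B3 and -1.18 in A5. Groups A2, A4, A5, A6 and B1 and the loci outside A and B each hold genes on both sides of 0.

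Group B3 holds mostly transcriptional activators of ethylene, jasmonate and pathogen responses, and it carried the most reads of any group in wild type. Its 11 members summed to 2155 reads in crwn1 crwn2 and 4094 in wild type. Of 9 measured members, 6 were called lower and 0 higher. ERF1 (chr3:8295644-8296604, TAIR10), which joins ethylene and jasmonate signals in defence, had 1 read in the mutant and 18 in wild type. That is an 18.9-fold lower share, with a counting interval of 2.99 to 789 because of the lone read. ERF6 (chr4:9752824-9753867), an activator that acts in stress responses of leaves, had 96 reads (41.7 RPKM) in the mutant and 413 reads (189 RPKM) in wild type, 4.53-fold lower (3.62 to 5.71).

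The other called genes of B3 differed by 2.56-fold to 3.44-fold. ERF2 (chr5:19171862-19172823), an activator through the GCC box, had 37 reads in crwn1 crwn2 and 121 in wild type. ERF1A, a close relative with the same binding site, had 107 reads in the mutant and 291 in wild type. ERF5 (chr5:19179939-19181129), which acts with ERF6 in chitin and stress responses, had 175 reads in the mutant and 426 in wild type. ERF105 (chr5:20800584-20801416), a factor of freezing tolerance, had the highest wild-type RPKM of the 92 members. Its values were 356 reads (194 RPKM) in crwn1 crwn2 and 1017 reads (583 RPKM) in wild type, a 3.01-fold lower share (2.66 to 3.40).

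The 3 measured B3 genes that were not called were also abundant. ERF104, which is phosphorylated by a MAP kinase in immune signalling, had 726 reads (315 RPKM) in the mutant and 1149 reads (525 RPKM) in wild type. Its read ratio of 0.601 (0.546 to 0.660) was below equality by more than counting error but short of 2-fold. AT5G07580 had 185 reads in the mutant and 208 in wild type. DEWAX, a repressor of wax synthesis, had 472 reads (241 RPKM) in the mutant and 449 reads (242 RPKM) in wild type, so that its ratio of 0.999 (0.876 to 1.14) spanned equality. Of the B3 genes with the highest wild-type RPKM, ERF105, ERF104 and DEWAX, 1 was thus called lower and the other two were not.

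Several members lie next to each other in the genome, and 7 pairs were within 10000 bp. ERF6 and ERF1A lie on chromosome 4 with 5041 bp and no annotated gene between them, and both were called lower (log2 ratios of -2.15 and -1.50). ERF2 and ERF5 on chromosome 5 are separated by 6924 bp and 1 gene, and both were called lower (-1.73 and -1.34). DEWAX and ERF104, 832 bp apart on chromosome 5, differed in ratio (-0.0013 and -0.73), and neither was called. ERF12 and ERF11 on chromosome 1, with 2668 bp and no gene between them, differed most among the pairs in which both genes were measured. ERF12, a repressor of group B1, had 16 reads in crwn1 crwn2 and 14 in wild type, a log2 ratio of 0.11. ERF11, its neighbour and also of B1, had a log2 ratio of -1.99.

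The genes of these pairs lie within a few kilobases of each other. ERF6 and ERF1A, a pair called lower together, are left out of the print. The promoters shown are those of ERF11 and ERF12, whose ratios were unlike, and of ERF2 and ERF5, whose ratios were alike. Each is the 250 bases before the gene start in the RefSeq annotation of TAIR10.1: chr1:9956981-9957230 on the minus strand for ERF11, chr1:9951512-9951761 on the plus strand for ERF12, chr5:19179631-19179880 on the plus strand for ERF5 and chr5:19172957-19173206 on the minus strand for ERF2. Capitals mark matches to the GCC box GCCGCC, the DRE core CCGAC, the W box TTGACC or TTGACT and the G box CACGTG, on either strand.
ERF11: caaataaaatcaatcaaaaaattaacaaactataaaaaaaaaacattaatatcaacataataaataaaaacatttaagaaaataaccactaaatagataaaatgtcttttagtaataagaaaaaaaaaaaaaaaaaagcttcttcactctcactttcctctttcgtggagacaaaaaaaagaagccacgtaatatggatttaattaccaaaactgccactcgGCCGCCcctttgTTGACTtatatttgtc
ERF12: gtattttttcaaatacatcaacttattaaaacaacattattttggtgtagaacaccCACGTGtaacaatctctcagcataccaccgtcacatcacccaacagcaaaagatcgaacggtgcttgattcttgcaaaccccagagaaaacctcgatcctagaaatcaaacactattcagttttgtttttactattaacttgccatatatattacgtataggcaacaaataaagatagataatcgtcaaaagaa
ERF5: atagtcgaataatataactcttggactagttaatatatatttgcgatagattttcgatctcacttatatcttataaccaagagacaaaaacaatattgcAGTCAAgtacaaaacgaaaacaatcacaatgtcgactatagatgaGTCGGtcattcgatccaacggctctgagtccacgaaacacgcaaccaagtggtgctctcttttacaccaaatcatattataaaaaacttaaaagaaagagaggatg
ERF2: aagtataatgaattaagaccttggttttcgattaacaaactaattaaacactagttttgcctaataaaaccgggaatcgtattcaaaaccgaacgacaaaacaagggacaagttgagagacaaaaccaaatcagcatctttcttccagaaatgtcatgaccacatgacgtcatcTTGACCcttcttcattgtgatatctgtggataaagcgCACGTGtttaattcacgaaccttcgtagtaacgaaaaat
ERF11 holds a GCC box whose first base is 28 bases before the gene start and a W box at 16 bases. ERF12 holds a G box at 194 bases and none of the other motifs. ERF5 holds a W box and a DRE core, and ERF2 a W box and a G box. ERF2 and ERF5, called lower together, have a W box in both windows, while in the pair that differed it lies in the window of ERF11. The W box is a common match, found in 29.3% of the members' windows and 28.4% of all promoters. These pairs were picked with their ratios known. ERF6 and ERF1A, also called lower together, have no W box in their windows, and ERF1A holds a G box. These matches describe letters and show no binding.

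Group B1 holds ERF factors that mostly act as repressors through an EAR motif, and its 12 members summed to 824 reads in crwn1 crwn2 and 1587 in wild type. Of 7 measured members, 3 were called lower and 1 higher. ERF4 (chr3:5121422-5122562), a repressor of ethylene and jasmonate responses, had 232 reads (92.3 RPKM) in the mutant and 648 reads (271 RPKM) in wild type, 2.94-fold lower (2.53 to 3.43). ERF11 (chr1:9955969-9956940), which represses genes of ethylene synthesis, had 47 reads in the mutant and 184 in wild type, 4.12-fold lower (2.98 to 5.80). ERF8 had 39 reads in the mutant and 107 in wild type, 2.89-fold lower (1.98 to 4.28). Genes of repressors were thus among those called lower beside the activators of B3.

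The further EAR repressors ERF3 and ERF7 of B1 were abundant and not called. ERF3 had 315 reads (111 RPKM) in crwn1 crwn2 and 384 reads (143 RPKM) in wild type. ERF7 had 150 reads in the mutant and 241 in wild type, a log2 ratio of -0.74. LEP (chr5:4482450-4483085), which promotes growth of the leaf blade along the petiole, was the B1 gene called higher. It had 14 reads (9.99 RPKM) in the mutant and 1 read (0.751 RPKM) in wild type, 13.3-fold higher with a wide interval of 2.02 to 563.

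Group A5 was the DREB group with the most genes called lower, 6 of 11 measured, and 0 were called higher. Its 14 members summed to 420 reads in crwn1 crwn2 and 1210 in wild type. AT1G77640 (chr1:29178737-29179675) had 22 reads (10.6 RPKM) in the mutant and 214 reads (109 RPKM) in wild type, 10.2-fold lower (6.59 to 16.7), and its log2 ratio of -3.24 was the lowest of the 92 members. Reads covered 78.7% of its length in the mutant and 97.3% in wild type, so they were spread along the gene. AT5G21960 (chr5:7258363-7259308) had 1 read in the mutant and 18 in wild type, the same counts as ERF1. AT1G19210 (chr1:6626822-6627530) had 9 reads in the mutant and 53 in wild type, 6.20-fold lower (3.03 to 14.3).

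ORA47, an activator of jasmonate synthesis genes, had 77 reads (38.1 RPKM) in crwn1 crwn2 and 235 reads (122 RPKM) in wild type, 3.21-fold lower (2.47 to 4.21). DREB26 had 163 reads (63.5 RPKM) in the mutant and 489 reads (201 RPKM) in wild type, 3.16-fold lower (2.64 to 3.79). AT4G31060 had 22 reads in the mutant and 51 in wild type, and with a log2 ratio of -1.18 it was the nearest to the 2-fold limit of the genes called lower. The 5 measured A5 genes that were not called include DEAR2, DEAR3, RAP2.1 and RAP2.10, and their log2 ratios lay between -0.77 for DEAR2 and 0.50 for AT1G44830. RAP2.1, a repressor with an EAR motif that limits cold and drought responses, had 13 reads in each library.

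**Figure D3:**
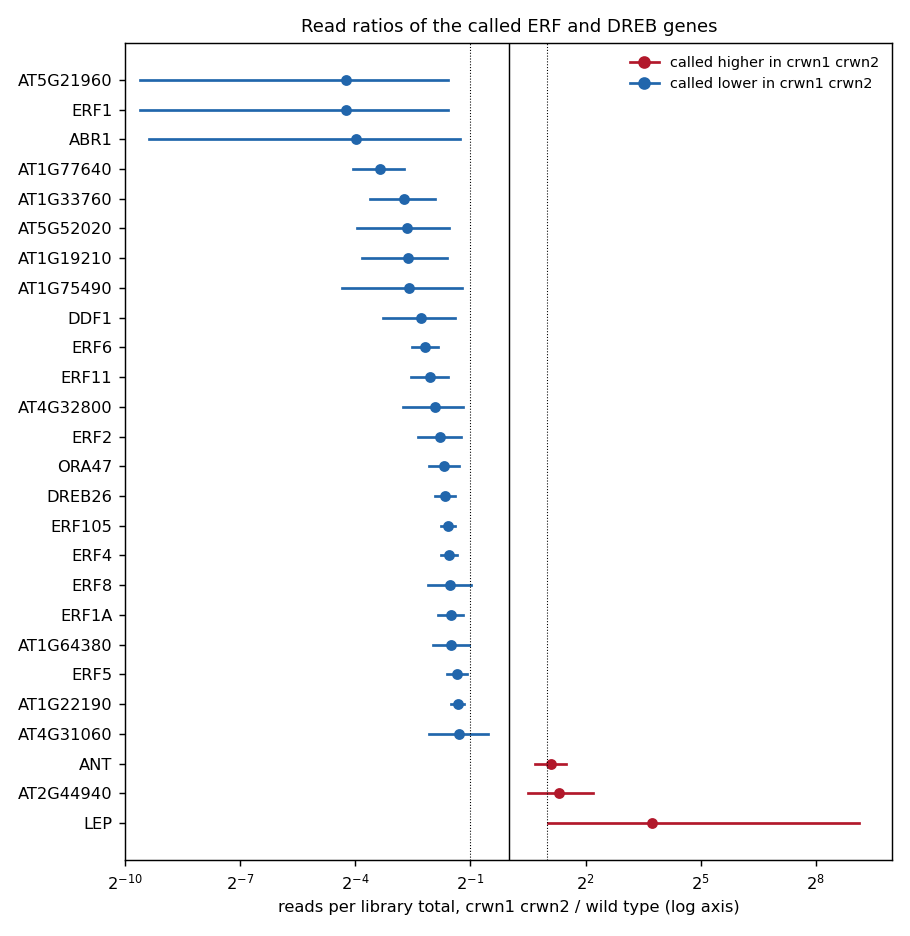
Ratio of reads per library total, crwn1 crwn2 over wild type, for the 26 called members on a log axis, with exact 95% counting intervals; the solid line marks equality and dotted lines 2-fold. The intervals of AT5G21960, ERF1, ABR1 and LEP are the widest because each has 1 read in the library where it is low, and that of ERF105 is narrow.

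Groups A1, A2 and A4 held 5 further DREB genes called lower. DDF1 (chr1:4289944-4291017) of group A1, a relative of the CBF cold factors that lowers gibberellin, had 13 reads in crwn1 crwn2 and 60 in wild type, 4.86-fold lower (2.64 to 9.64). AT1G75490 of group A2, the group of dehydration-responsive DREB2 factors, had 5 reads in the mutant and 29 in wild type. In group A4, AT1G33760 had 15 reads in the mutant and 94 in wild type, 6.59-fold lower (3.80 to 12.2). AT5G52020 of A4 had 8 reads in the mutant and 48 in wild type. AT4G32800, also of A4, had 19 reads in the mutant and 69 in wild type. All 5 of these genes had more than 20 reads in wild type.

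Group A4 also held a gene called higher. AT2G44940 (chr2:18537257-18538418) had 47 reads (18.4 RPKM) in crwn1 crwn2 and 18 reads (7.40 RPKM) in wild type, 2.48-fold higher (1.41 to 4.54). TINY, an A4 factor that restrains growth, had 12 reads in the mutant and 14 in wild type. The group therefore held genes called in opposite directions, 3 lower and 1 higher among 7 measured.

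In group A6, which had the most DREB reads, genes of similar level differed in their ratios. RAP2.4, a factor of light, ethylene and drought responses, had 1154 reads (287 RPKM) in crwn1 crwn2 and 1177 reads (308 RPKM) in wild type, a ratio of 0.932 (0.858 to 1.01). AT1G22190, of the same group, had 443 reads (133 RPKM) in the mutant and 1061 reads (336 RPKM) in wild type, 2.52-fold lower (2.25 to 2.82). The counting intervals of the pair were far apart. AT1G64380 had 54 reads in the mutant and 146 in wild type, 2.84-fold lower (2.07 to 3.96). The other 3 measured A6 genes, AT4G39780, AT1G36060 and AT2G22200, had log2 ratios of -0.02, -0.29 and 0.53.

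Group B2 holds the oxygen-sensing ERF factors of hypoxia, whose proteins are degraded when oxygen is present. None of its 3 members taken by the name rule was called. RAP2.2 had 12 reads in crwn1 crwn2 and 5 in wild type, and the hypoxia-induced genes HRE1 and HRE2 were not measured. HRE1 had 2 reads in each library. HRE2 had 3 reads in the mutant and 6 in wild type. For RAP2.2, reads covered 5.31% of the transcript model in the mutant and 4.28% in wild type, so its level rests on a small stretch of the gene.

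Group B4 contains ABR1, a repressor in abscisic acid responses, and stress-induced relatives. ABR1 (chr5:25891506-25893888) had 1 read in crwn1 crwn2 and 15 in wild type, 15.8-fold lower with an interval of 2.43 to 664. RAP2.6L, which acts in shoot regeneration and stress, had 42 reads in the mutant and 77 in wild type, a log2 ratio of -0.91 just short of the 2-fold limit. RAP2.6 had 7 reads in the mutant and 12 in wild type. Of the cytokinin response factors in B5, CRF8 was measured, with 35 reads in the mutant and 44 in wild type. ESE3 of B6, an ethylene and salt responsive gene, had 53 reads in the mutant and 28 in wild type, a ratio of 1.80 (1.12 to 2.95) that was short of 2-fold.

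The 9 loci outside groups A and B are developmental regulators for the most part. ANT (chr4:17739514-17742401), which prolongs cell division in growing organs, had 170 reads (35.9 RPKM) in crwn1 crwn2 and 76 reads (16.9 RPKM) in wild type, 2.13-fold higher (1.61 to 2.82). Its call depends on the scaling, with log2 ratios of 1.04 here, 0.92 after TMM scaling and 0.94 with DESeq2 size factors. The root stem cell gene PLT1 had 9 reads in the mutant and 10 in wild type, and its relative PLT2 had 11 in the mutant and 8 in wild type. SMZ and SNZ, repressors of flowering, were likewise not called. SMZ had 8 reads in the mutant and 12 in wild type, and SNZ had 25 in the mutant and 17 in wild type. BBM, an embryo and root regulator, had 8 reads in the mutant and 11 in wild type.

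The 37 members that were not measured had at most 9 reads in either library and summed to 85 reads in crwn1 crwn2 and 104 in wild type. Of these, 21 had a log2 ratio below 0 and 16 above 0, and for none did the counting interval leave out equality. Over all members, 7 had 0 reads in the mutant and 6 had 0 in wild type. AT1G22810 of A5 and AT5G61890 of B4 each had 0 reads in the mutant and 5 in wild type. DREB2C had 2 reads in the mutant and 7 in wild type, and RAP2.11, a factor of potassium responses, had 7 in the mutant and 3 in wild type. At this depth no difference was detectable for any of them.

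Near the 2-fold limit, the genes called lower with the smallest change were AT4G31060, AT1G22190 and ERF5, with log2 ratios of -1.18, -1.33 and -1.34. The 3 genes called higher were ANT at 1.04, the called member nearest to the limit in either direction, AT2G44940 at 1.205 and LEP at 2.65. Just outside the limit on the lower side were RAP2.6L, DEAR2 and ERF7, at -0.91, -0.77 and -0.74. On the higher side, RAP2.2 and ESE3 lay just outside at 0.82 and 0.81, followed by AT2G22200 at 0.53. AT3G57600 of A2 was past 2-fold, with 10 reads in the mutant and 3 in wild type, but its interval of 0.816 to 17.9 held equality and it was not called.

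The share of members called lower was largest in the class of highest level. Among the 15 measured members with a mean RPKM of 50 or more, 10 were called lower (66.7%), against 201 of 2928 loci of that level (6.86%). Between 10 and 50 RPKM, 9 of 20 members were called lower (45%), against 243 of 6769 loci (3.59%). Under 10 RPKM, 4 of 20 members were called lower (20%), against 208 of 4696 loci (4.43%). The members' medians in these classes were -1.50, -0.84 and -0.11 from the highest level to the lowest. Fewer reads make a call harder to reach in the lowest class. Of the 8 members with the highest mean RPKM, 4 (ERF105, AT1G22190, ERF4 and DREB26) were called lower, and ERF104, RAP2.4, DEWAX and ERF3 were not called.

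The members called lower were mostly genes without an intron. In the files' transcript models, 21 of the 23 lacked an intron (91.3%), against 20 of the 29 measured members that were not called (69.0%) and 2507 of 14314 measured nuclear loci (17.5%). ABR1 and AT4G31060 were the 2 with an intron. Among measured members, 21 of 43 without an intron were called lower (48.8%), against 2 of 12 with an intron (16.7%). Over all measured nuclear loci, 272 of 2507 without an intron were called lower (10.8%), against 374 of 11807 with an intron (3.17%). The share called lower was thus larger without an intron among all loci too, and the share among intronless members was above that among all intronless loci. Median read coverage of the members called lower was 71.1% in crwn1 crwn2 and 88.6% in wild type.

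Promoter motifs were counted in the 250 bases before the RefSeq gene start, on both strands, with no overlap between motif types required or excluded. The GCC box GCCGCC, the site that ERF factors bind, lay in 3 of the 23 members called lower (13.0%), namely ERF11, AT1G75490 and ABR1. It lay in 0 of the 29 measured members not called and in 513 of 27443 promoters (1.87%). The W box TTGACC or TTGACT, bound by WRKY factors, lay in 8 of 23 (34.8%), 5 of 29 (17.2%) and 28.4% of all promoters. The G box CACGTG lay in 5 of 23 (21.7%), 2 of 29 (6.90%) and 6.49% of all promoters. The DRE core CCGAC lay in 2 of 23 (8.70%), 5 of 29 (17.2%) and 12.0% of all promoters, and CGCGTT, bound by calmodulin-binding CAMTA factors, in 2 of 23 (8.70%), 1 of 29 (3.45%) and 2.59%. Among the 625 promoters of all loci called lower, the GCC box lay in 3.52%, the W box in 34.1%, the G box in 11.04%, the DRE core in 13.1% and CGCGTT in 5.76%. The members' share with a W box was thus close to that of all loci called lower. The members' shares rest on 2 to 8 genes each among those called lower and are descriptions of letters, with no test.

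The promoters of ABR1 (chr5:25891199-25891448, plus strand) and AT1G19210 (chr1:6627689-6627938, minus strand) are printed because ABR1 holds a GCC box beside a DRE core, and AT1G19210 holds the most matches among the members called lower. Capitals mark the matches to the motifs just named, from the RefSeq annotation of TAIR10.1.
ABR1: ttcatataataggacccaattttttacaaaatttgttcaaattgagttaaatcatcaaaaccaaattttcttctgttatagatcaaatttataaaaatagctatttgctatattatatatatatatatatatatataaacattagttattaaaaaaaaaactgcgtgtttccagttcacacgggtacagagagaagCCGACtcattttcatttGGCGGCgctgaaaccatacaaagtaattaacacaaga
AT1G19210: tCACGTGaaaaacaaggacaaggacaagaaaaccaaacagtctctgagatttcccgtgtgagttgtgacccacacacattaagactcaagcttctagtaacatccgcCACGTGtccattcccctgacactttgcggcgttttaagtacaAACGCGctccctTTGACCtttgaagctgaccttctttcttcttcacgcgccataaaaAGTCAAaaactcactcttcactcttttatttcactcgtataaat
In ABR1 the DRE core starts 54 bases and the GCC box 37 bases before the gene start, and the GCC box lies on the other strand. AT1G19210 has 2 G boxes, 2 W boxes and 1 CGCGTT element.

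The name rule leaves out AP2/ERF genes with other product names. Excluding the 3 dropped CBF loci, 16 loci that RefSeq places in groups A1 to B6 were not taken, and 5 of the 13 measured were called lower and 0 higher (38.5%), with a median of -0.10. RRTF1 of B3, a factor of redox stress, had 80 reads in crwn1 crwn2 and 534 in wild type. CBF4 had 1 read in the mutant and 10 in wild type, and DEAR1 had 25 in the mutant and 63 in wild type. DREB2A, the drought and heat factor of A2, had 28 reads in the mutant and 69 in wild type, and ERF13 had 35 in the mutant and 77 in wild type. RAP2.3, the abundant B2 gene, had 590 reads in the mutant and 600 in wild type. The cytokinin response factors CRF1 to CRF4 had log2 ratios between 0.047 and 0.58 and were not called.

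The WRKY, MYB and bHLH families, also taken by product name, held smaller shares called lower, and no other factor family was counted. Of 37 measured WRKY loci, 7 were called lower (18.9%) and 1 higher, with a median of -0.0056. Of 54 measured MYB loci, 6 were called lower and 8 higher, with a median of 0.22. Of 57 measured bHLH loci, 3 were called lower and 6 higher, with a median of 0.034. These families are given without a test of the difference.

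Genes upstream of the ERF factors in ethylene signalling were mostly not called. Of 17 measured genes of ethylene synthesis and signalling, 2 were called lower and 1 higher, and 13 lay below 0, with a median of -0.15. ACS6, an enzyme of ethylene synthesis, had 704 reads in crwn1 crwn2 and 1632 in wild type, and its relative ACS8 had 12 in the mutant and 29 in wild type. ACO5, which makes the last step of the synthesis, had 72 reads in the mutant and 32 in wild type. Of the central signalling factors, EIN2 had 432 reads in the mutant and 430 in wild type, and EIN3 had 870 in the mutant and 921 in wild type. Other genes of the pathway were not called but lay below equality by more than counting error. Their read ratios were 0.488 (0.321 to 0.731) for ETR2, 0.598 (0.390 to 0.907) for ERS2, 0.694 (0.611 to 0.788) for ERS1 and 0.737 (0.647 to 0.838) for EBF1. The intervals of ETR1 and EBF2 held equality. With a 1.5-fold limit, 4 genes of the list were called lower.

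Known downstream genes showed mixed values. None of the 3 measured jasmonate and ethylene defence targets of B3 factors was called, and the basic chitinase gene CHI-B had 108 reads in crwn1 crwn2 and 152 in wild type. The defensin gene PDF1.2A had 0 reads in the mutant and 1 in wild type, and PDF1.2B, PDF1.2C and PDF1.3 had 0 reads in both libraries. Of 10 measured cold and dehydration targets of DREB factors, 4 were called lower (COR47, ERD10, HSFA3 and ERD7) and 1 higher (KIN1), with a median of -0.53. Reads of ERD10 covered 7.07% of its transcript model in each library, so its level rests on a small stretch of the gene. Among loci with 1 listed model, which leaves out ERD10, 3 of these targets were called lower. COR47, a dehydrin gene, had 1991 reads in the mutant and 3905 in wild type, while the drought marker RD29A had 588 in the mutant and 486 in wild type. Of 9 measured hypoxia genes, targets of B2 factors, 0 were called and all 9 lay below 0, with a median of -0.27.

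Other gene groups differed between the same libraries. Of 15 measured genes that respond early to touch and wounding, 13 were called lower and all 15 lay below 0, with a median of -1.84 and a summed level of 1827 RPKM in crwn1 crwn2 and 7182 RPKM in wild type. WRKY40 had 280 reads in the mutant and 1834 in wild type, and TCH4, a cell wall gene named for its touch response, had 932 in the mutant and 4694 in wild type. Of 7 measured clock genes, 2 (PRR7 and GI) were called lower and all 7 lay below 0, with a median of -0.84. The clock genes CCA1, LHY and PRR9 had 0 reads in both libraries. Root and root hair markers were higher in the mutant, 7 of 9 measured, with a summed level of 184 RPKM, against 37.9 RPKM in wild type, and EXPA7 and EXPA18 had 0 reads in wild type. Leaf photosynthesis markers summed to 9737 RPKM in the mutant and 7965 RPKM in wild type, but they differed in direction. Of 10 measured, 3 lay below 0 and 1, CAB2, was called lower. CAB2 had 134 RPKM in the mutant and 414 RPKM in wild type, and CAB3 had 891 and 1610 RPKM. RBCS2B, with the highest level, had 3526 RPKM in the mutant and 2221 RPKM in wild type. For RBCS1A, RBCS3B and RCA, reads covered at most 10.05% of the transcript model in either library. The part of handling, time of day or organ share in the members' ratios was not tested.

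**Figure D4:**
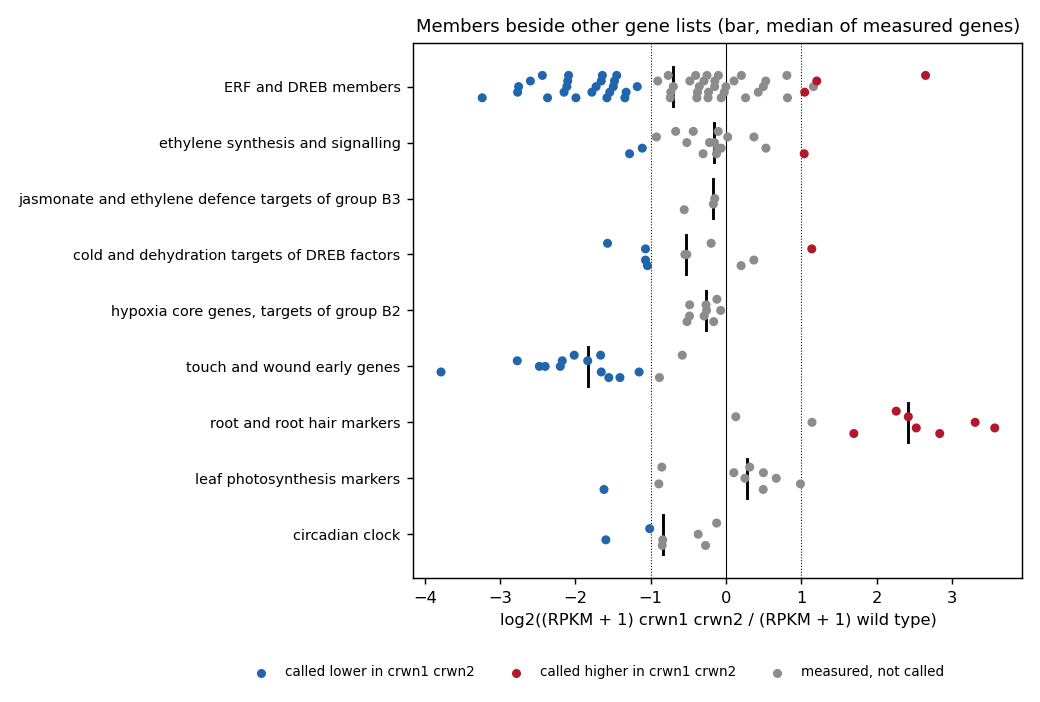
Log2 ratios of the measured members and of 8 other gene lists, with 1 point per gene and a bar at each median; values below 0 are lower in crwn1 crwn2. The members' median of -0.70 lies between those of the circadian clock genes (-0.84) and of the cold and dehydration targets (-0.53). The touch and wound genes lie at -1.84, ethylene synthesis and signalling at -0.15 and the root and root hair markers at 2.42.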

How the data were processed

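Polyadenylated RNA of 10-day seedlings was sequenced, with 1 library each of crwn1 crwn2 and wild type. Per the file headers, the deposited read counts hold the unique reads of each transcript model; models with no read are not listed. The authors' RPKM values divide these reads by model length and by the library total in the file header. The deposited coverage is the percent of a model covered by reads, per the file headers. The genome build was TAIR10 (the submitters' processing notes). The sources used here give no aligner, counter or strand handling. Where close paralogs or a gene's own models share sequence, unique placement can lower their reads, as may be so for RAP2.2, HRE1 and CRF11.

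Reads and RPKM were summed per locus (88 members have 1 listed model and 4 have several). The log2 ratio used RPKM with a pseudocount of 1. Intervals are Clopper-Pearson bounds at 95% from scipy 1.17.1 under Python 3.11.15, and calls need a difference of at least 2-fold. Before use, the calling step was tested on simulated counts that held counting error alone. That simulation cannot show how the calls stand against variation between plants or libraries. No p-values were computed. The members, groups and lists were chosen with earlier results of these data known. Named are every called member, the 8 with the highest mean RPKM, the B2 members, the 3 nearest to the 2-fold limit on each side, and CRWN1 and CRWN2; the other genes named were chosen after their values were seen. Promoters come from the RefSeq annotation of TAIR10.1, whose genes enclose the deposited models for 91 of 92 members, and other coordinates are those of the deposited models. A count of EAR motifs in the proteins was planned and not made. Alternatives were TMM scaling (edgeR 4.0.16) and size factors (DESeq2 1.42.0), CPM in place of RPKM, a pseudocount of 0.1, an RPKM minimum of 5 or no minimum, 4-fold and 1.5-fold limits, and loci with 1 model.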

Additional observations from a re-analysis of the deposited data

How the results depend on the processing

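The 23 members called lower stayed called with TMM scaling, DESeq2 size factors, CPM, a pseudocount of 0.1, no minimum level, a 1.5-fold limit and loci with 1 model, and 22 of them with an RPKM minimum of 5, which removed ABR1. With a 4-fold limit 10 were called lower and 1 higher. TMM and the size factors called 24 lower and 2 higher: RAP2.6L joined (-1.04 and -1.01) and ANT left (0.92 and 0.94). TMM moved the median of all loci by -0.13 and the members' median to -0.81, with 826 loci called lower and 691 higher over all measured, against 652 and 912 without it. The 1.5-fold limit added ERF7, RAP2.6L and ERF104 to those lower and ESE3 to those higher. The members' median lay between -0.81 and -0.40 over the settings, with -0.40 found without a minimum level. No paired analysis was possible because each genotype has 1 library. Calls of ERF1, AT5G21960, ABR1 and LEP rest on 1 read in the library where they are low, and the median member had 9 reads in crwn1 crwn2 and 12 in wild type.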
